A study of Homo sapiens with 8 samples.

Results

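MM1.S and NCI-H929 are long-established lines of human multiple myeloma, and what is compared here, on 8 arrays, is how differently they responded to a short hairpin RNA against SIRT6. For each gene the effect of the hairpin (shSIRT6 minus scramble, log2) was taken in each line, and the MM1.S effect was subtracted from the NCI-H929 effect. A positive difference therefore means a higher response in NCI-H929, whatever the sign in either line. The members are all 14884 gene symbols named in the table, 1 row per gene (the row with the highest mean over the 8 arrays), of which 12734 lay above the filter level and were tested. The 4 groups are MM1.S with scramble hairpin, MM1.S with shSIRT6, NCI-H929 with scramble hairpin and NCI-H929 with shSIRT6, with 2 arrays each and all 8 arrays in every fit. All cells carried a hairpin construct and grew in RPMI medium with serum. Total RNA was labelled for Affymetrix human arrays, which give 1 log2 signal per transcript row. Each line stands for 1 tumour, and the labels say neither how the hairpin was delivered, nor for how long, nor whether more than 1 SIRT6 hairpin was used.

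SIRT6 is a nuclear, NAD-dependent enzyme that removes acetyl and other acyl groups from histones and acts in DNA repair, metabolism and gene silencing. Myeloma cells are malignant plasma cells, which make much secreted protein and are known to lean on the integrated stress response. In that response, shortage of amino acids or crowding of the endoplasmic reticulum slows translation in general while favouring production of the transcription factor ATF4. ATF4 then drives genes for amino acid synthesis, tRNA charging and restraint of the growth kinase complex mTORC1, and with lasting stress its partner CHOP.

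Across rows, correlations were 0.989 to 0.992 within a group, 0.985 to 0.989 between the constructs of a line and 0.942 to 0.95 between lines. Whether the 2 arrays of a group are separate cultures is not in the labels, and the p-values then cover only how far these arrays scatter, possibly technical scatter alone. SIRT6 itself, the target, went in MM1.S from log2 levels of 6.09 and 5.88 (scramble) to 5.60 and 5.78 (hairpin). In NCI-H929 it went from 6.53 and 6.97 to 6.25 and 6.31. Both hairpin arrays lay below both scramble arrays in each line, by −0.30 ± 0.16 (limma SE) and −0.47 ± 0.16, but neither change passed the test (adjusted p = 0.355 and 0.276). Constructs that separated in the same direction, up or down, in both lines were seen in 15.4% of all genes tested. The difference between the lines for SIRT6 was −0.18 ± 0.23 (adjusted p = 0.771).

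The response of a small set of genes differed strongly between the lines, and nearly all of the called differences ran the same way: values fell with shSIRT6 in MM1.S and were higher, or moved little, in NCI-H929. This one-sidedness holds for the genes called here and not for the wider set called with a prior spread that follows level (202 higher and 228 lower). Regulators and targets of the ATF4 pathway led the set. At an adjusted p below 0.05 (Benjamini-Hochberg, limma), a difference was called for 26 of 12734 genes (0.204%), and 13.8% had an unadjusted p below 0.05. Of these, 25 had the higher effect in NCI-H929 (0.196%) and 1 the lower, the cyclin gene CCND2 (0.00785%). A called non-coding RNA among the 25 is not described here. All 25 had both shSIRT6 arrays below both scramble arrays in MM1.S. The share of all genes with this order in MM1.S alone is not given here. In the effects of the single lines, MM1.S had 169 genes called (1.33%), 26 of them higher (0.204%) and 143 lower (1.12%). NCI-H929 had 3 (0.0236%): DDIT3 and SESN2, which were higher (0.0157%), and CCND2, which was lower (0.00785%). Unadjusted, 19.6% of genes passed in MM1.S (8.25% higher, 11.3% lower) and 14.5% in NCI-H929 (4.74% higher, 9.75% lower). In NCI-H929, 16 of the 25 had both shSIRT6 arrays above both scramble arrays. Non-overlapping arrays that lay lower in MM1.S and higher in NCI-H929 were seen in 2.82% of all genes. The 25 genes were called from these same arrays, so the counts of separated arrays describe the calls and are not further evidence for them.

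**Figure D1:**
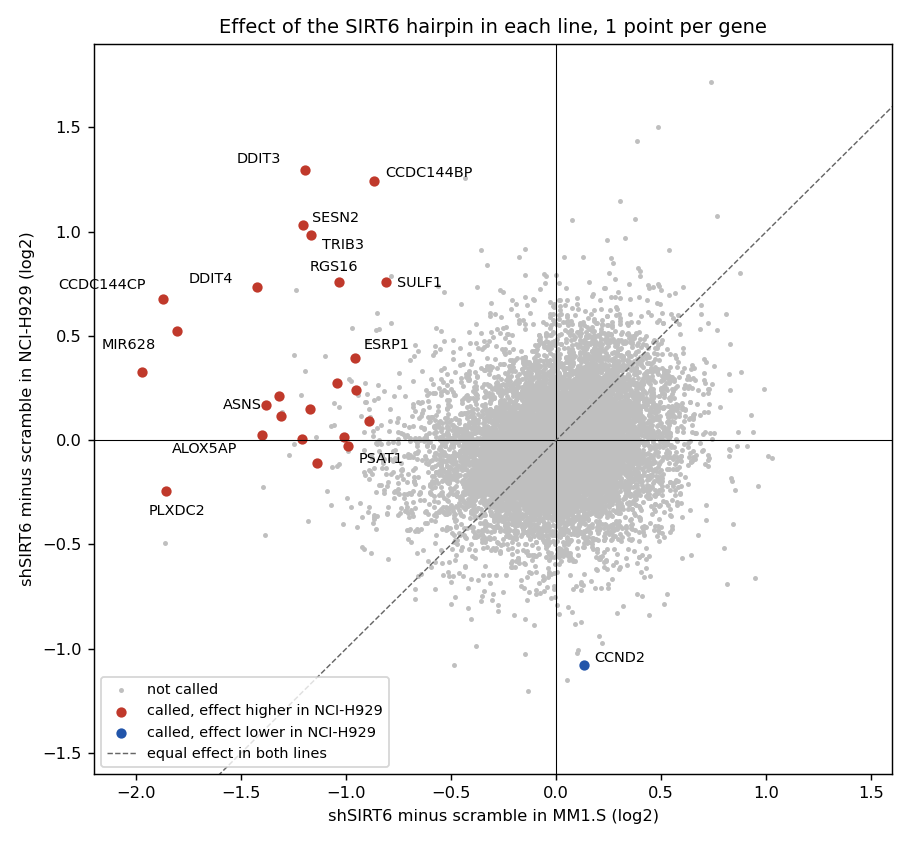
Each point is 1 of the tested genes, placed by its log2 effect of shSIRT6 in MM1.S (x axis) and in NCI-H929 (y axis); red and blue points are genes whose difference between the lines was called, and the dashed line marks equal effects. The red genes lie at MM1.S effects from −1.97 to −0.81 and NCI-H929 effects from −0.25 to 1.30, and the single blue gene, CCND2, lies at 0.13 and −1.08.

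Some of the called genes responded in opposite ways in the 2 lines. By size, 12 of the 26 had effects of opposite sign of at least 0.3 log2 in each line (1.64% of all genes did). Of the rest, 13 moved by that much in MM1.S alone (18.0% of all genes) and 1 in NCI-H929 alone (13.1%). The 12 include PIERCE2, whose arrays overlapped in NCI-H929. A stricter count asked for a called difference, an unadjusted p below 0.05 in each line and arrays of the constructs that do not overlap in either line. It held for 11 genes (0.0864%), and all 11 were lower in MM1.S and higher in NCI-H929 with shSIRT6. The count in the other direction was 0. Without the condition on arrays, the 180 opposite genes called with that other prior split into 60 lower in MM1.S and higher in NCI-H929 and 120 the reverse. On cyclic loess values the same prior gave 104 and 87, and the stricter filter on level gave 16 and 3. The line effects share their arrays with the difference, so they describe it and are not further evidence for it.

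Among the ATF4 and CHOP regulators, DDIT3 and TRIB3 turned in opposite directions. DDIT3 encodes CHOP, a transcription factor of stress-induced cell death. Its log2 level on the MM1.S arrays was 6.72 and 6.64 under scramble and 5.34 and 5.63 under the hairpin, and on the NCI-H929 arrays 5.23 and 5.14, then 6.43 and 6.53. MM1.S was the higher line under scramble and the lower line under the hairpin, and the constructs did not overlap in either line. DDIT3 fell by 1.20 ± 0.12 in MM1.S (adjusted p = 0.0107) and rose by 1.30 ± 0.12 in NCI-H929 (adjusted p = 0.0484), a difference of 2.49 ± 0.17 (adjusted p = 0.00447). The call within NCI-H929, as for SESN2 and CCND2, was lost with no filter, with the mean of a gene's rows, after quantile or cyclic loess normalization, with a robust prior, array weights or a replicate block, and without any 1 array. The call of the difference was lost without replicate 2 of shSIRT6 in NCI-H929 (2.44, adjusted p = 0.0532).

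TRIB3 encodes a pseudokinase that is induced by ATF4 and CHOP and restrains both. In MM1.S its levels were 7.56 and 7.61, then 6.41 and 6.43, and in NCI-H929 they were 5.73 and 5.99, then 6.83 and 6.86, with the scramble arrays first. The arrays of the constructs again separated in each line and in opposite order. The difference was 2.15 ± 0.16 (adjusted p = 0.00497), with −1.16 in MM1.S (adjusted p = 0.00954) and 0.98 in NCI-H929, which was not called there (adjusted p = 0.105). When any of the 4 shSIRT6 arrays, or replicate 2 of scramble in MM1.S, was left out, the adjusted p of TRIB3 lay between 0.0518 and 0.0564, while its difference stayed between 2.12 and 2.16.

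The inhibitors of mTORC1 gave the lowest p-values of the comparison. SESN2, sestrin 2, senses leucine and holds mTORC1 inactive when amino acids are short. Its levels in MM1.S were 8.23 and 8.25 under scramble and 7.02 and 7.05 under the hairpin, and in NCI-H929 7.81 and 7.67, then 8.71 and 8.83. The constructs lay far further apart than the replicates in each line, downward in MM1.S and upward in NCI-H929. The fall of 1.20 ± 0.10 in MM1.S (adjusted p = 0.00599) and the rise of 1.03 ± 0.10 in NCI-H929 (adjusted p = 0.0484, lost in the same alternatives as that of DDIT3) were both called, and the difference was 2.24 ± 0.14 (adjusted p = 0.00386).

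DDIT4, also called REDD1, blocks mTORC1 under low oxygen, DNA damage and other stresses. It stood at 6.90 and 6.86, then 5.52 and 5.39, in MM1.S, and at 9.16 and 9.10, then 9.91 and 9.82, in NCI-H929. NCI-H929 was higher than MM1.S with either construct, and the hairpin widened that gap from 2.25 to 4.41. The difference of effect was 2.16 ± 0.14 (adjusted p = 0.00386). The fall in MM1.S was called (−1.42, adjusted p = 0.00377) and the value in NCI-H929 was not (0.73, adjusted p = 0.158). SESN2 and DDIT4 kept their calls in each of the 8 fits that left out 1 array. Of the other named genes, DDIT3 was called in 7 of these 8 fits, TRIB3 in 3, CCDC144CP in 2 and PIERCE2 in 1, and each of the rest, ASNS, SARS1, PSAT1 and CCND2 included, lost its call whichever array was left out.

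The rest of the mTORC1 inhibitor list was not called. Of 17 members tested, 8 had a positive and 9 a negative difference, and the median was −0.03 beside −0.035 for all genes tested. The translational repressor EIF4EBP1 had a difference of 0.44 (adjusted p = 0.272), with a called fall of 0.68 in MM1.S (adjusted p = 0.0368). Its relative EIF4EBP2 had a difference of −0.48 (adjusted p = 0.24). The list's count of 2 called higher, beside 0.196% of all genes, is SESN2 and DDIT4 alone.

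**Figure D2:**
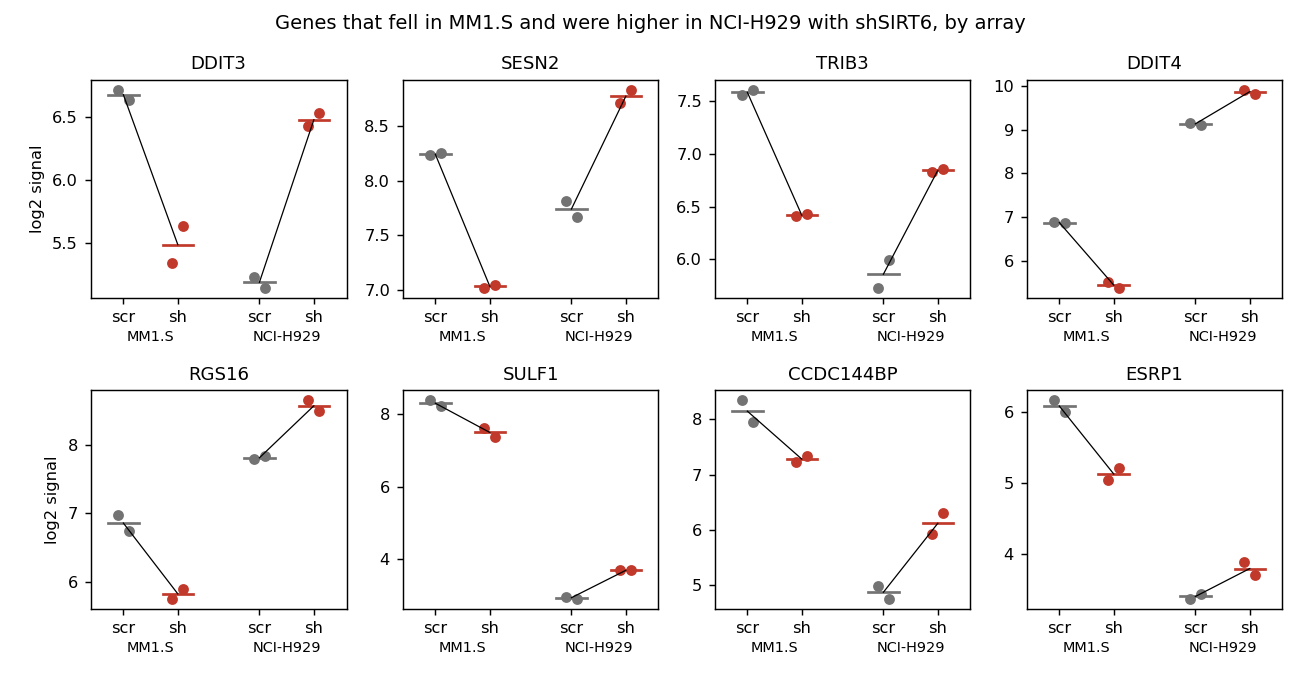
Log2 signal of 8 of the genes with opposite responses in each array, grey for scramble (scr) and red for shSIRT6 (sh), with MM1.S at the left and NCI-H929 at the right of each panel; short bars are the means of 2 arrays and thin lines join them, and each panel has its own y axis. In every panel the red points lie below the grey ones in MM1.S and above them in NCI-H929, as for DDIT3 (6.72 and 6.64 to 5.34 and 5.63, against 5.23 and 5.14 to 6.43 and 6.53).

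Besides DDIT3, TRIB3, SESN2 and DDIT4, the named genes of the strict count were RGS16, ESRP1, SULF1, the CCDC144 pseudogenes and MIR628. RGS16, which shortens signals from G protein-coupled receptors, had levels of 6.97 and 6.74, then 5.75 and 5.89, in MM1.S and of 7.79 and 7.83, then 8.65 and 8.49, in NCI-H929, each pair given with scramble first. Its arrays separated in each line, and the difference was 1.80 ± 0.17 (adjusted p = 0.017). ESRP1, an epithelial regulator of splicing, stood at 6.17 and 6.01, then 5.04 and 5.22, in MM1.S and at 3.37 and 3.43, then 3.89 and 3.70, in NCI-H929, a difference of 1.36 ± 0.17 (adjusted p = 0.0417). Its fall in MM1.S was called (−0.96, adjusted p = 0.0188), whereas the value in NCI-H929 was smaller and not called (0.40, adjusted p = 0.248). The NCI-H929 levels lay in the range of the lowest quartile of gene levels (3.05 to 4.22), where the median SD within groups was 0.182. The size of the change of ESRP1 there is therefore uncertain.

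SULF1, a sulfatase that trims heparan sulfate at the cell surface, went from 8.39 and 8.23 to 7.62 and 7.38 in MM1.S and from 2.94 and 2.89 to 3.68 and 3.67 in NCI-H929 (difference 1.57 ± 0.16, adjusted p = 0.0243). In NCI-H929 its scramble arrays lay under the filter level of 3.045, where a probe may not be above background, so the size of the change there is uncertain. The calls of RGS16, ESRP1 and SULF1 were each lost in 10 of 20 alternatives. The near-identical pseudogenes CCDC144CP and CCDC144BP, both on chromosome 17, differed by 2.54 ± 0.24 (adjusted p = 0.0172) and 2.11 ± 0.25 (adjusted p = 0.0398). CCDC144CP went from 8.81 and 8.90 to 6.96 and 7.01 in MM1.S and from 4.23 and 4.79 to 5.14 and 5.23 in NCI-H929. Probes of these copies may read each other's RNA, so they count as 1 observation with an uncertain source.

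A further group shares a stretch of chromosome 15 around CCPG1, a receptor for autophagy of the endoplasmic reticulum. MIR628, a microRNA gene inside CCPG1, had levels of 6.45 and 6.04, then 4.28 and 4.60, in MM1.S and of 5.25 and 4.77, then 5.46 and 5.61, in NCI-H929 (difference 2.33 ± 0.29, adjusted p = 0.0417). PIERCE2, a protein of ciliary microtubules, and the read-through transcript DNAAF4-CCPG1 overlap in the annotation, and their differences were 2.30 ± 0.27 (adjusted p = 0.0398) and 1.03 ± 0.13 (adjusted p = 0.0412). PIERCE2 fell by 1.97 in MM1.S and had overlapping arrays in NCI-H929 (0.32). DNAAF4-CCPG1 fell by 1.14 in MM1.S and had a value of −0.11 in NCI-H929. The 3 rows overlap in the genome and are not independent. An array of total RNA reads the transcript around a microRNA as well as the microRNA, so no statement on the mature forms follows. The mature arms of MIR628 are shown because its locus is the only microRNA among the called genes; capitals mark the seed, bases 2 to 8, and the sequences are RefSeq's of GRCh38.p14 (chr15:55372991-55373012 and chr15:55372954-55372974, minus strand).
hsa-miR-628-5p: aUGCUGACauauuuacuagagg
hsa-miR-628-3p: uCUAGUAAgaguggcagucga
The row of MIR616, a microRNA gene that overlaps DDIT3, was chosen after its values were seen and had a difference of 1.34 (adjusted p = 0.0647), with −0.78 in MM1.S and 0.56 in NCI-H929. RNA of DDIT3 and of MIR616 cannot be told apart here.

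Among the enzymes that make amino acids, 12 of 13 tested had a negative effect in MM1.S (49.1% of all genes did). Of the 13, 8 were called lower there (1.12% of all genes), and none was called in NCI-H929. In 4 of the 13 (ASNS, CTH, PCK2 and PSPH) the arrays did not overlap and lay lower in MM1.S and higher in NCI-H929 (2.82% of all genes), with NCI-H929 effects of 0.11 to 0.41. Of 20 genes in the list 13 were tested, and 11 had a positive difference (45.2% of all genes did). The median difference was 0.73, from a median of −0.71 in MM1.S and 0.03 in NCI-H929. The called members were ASNS and PSAT1 (2 of 13, beside 0.196% of all genes called higher). At an unadjusted p below 0.05, 8 members had the higher effect in NCI-H929 (5.73% of all genes did) and 1 the lower (8.11%).

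ASNS, which makes asparagine, had levels of 8.99 and 8.92, then 7.62 and 7.67, in MM1.S. In NCI-H929 it had 8.61 and 8.65, then 8.78 and 8.71. The construct separated the arrays by 1.31 in MM1.S but by only 0.11 in NCI-H929 (adjusted p = 0.596), and the difference was 1.42 ± 0.13 (adjusted p = 0.017). PSAT1, the aminotransferase of serine synthesis, went from 11.63 and 11.67 to 10.65 and 10.67 in MM1.S and stayed between 11.35 and 11.40 on the 4 NCI-H929 arrays (difference 0.96 ± 0.12, adjusted p = 0.0435).

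The other serine enzymes missed the call. PSPH, the last step of serine synthesis, had a difference of 1.04 ± 0.15 (adjusted p = 0.0611) and PHGDH, the first step, 0.76 ± 0.13 (adjusted p = 0.0912). CTH, which makes cysteine, had the highest value of the list, 1.66 ± 0.27 (adjusted p = 0.083), with −1.25 in MM1.S and 0.41 in NCI-H929. PCK2, the mitochondrial enzyme that makes phosphoenolpyruvate, had 1.28 ± 0.19 (adjusted p = 0.0712). All of these fell in MM1.S (8 of 13 members called lower there, against 1.12% of all genes), and none of the 13 was called in NCI-H929 (limma, 0). SHMT1, the cytosolic serine hydroxymethyltransferase, ran against the list with −0.46 (adjusted p = 0.239).

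The cytosolic aminoacyl-tRNA synthetases, which load amino acids onto tRNA, followed the synthesis enzymes. The difference was positive for 15 of 17 tested (45.2% of all genes), and its median was 0.48 (−0.52 in MM1.S and −0.01 in NCI-H929). SARS1, the seryl-tRNA synthetase, was the only member called (1 of 17, beside 0.196% of all genes called higher). It went from 8.20 and 8.16 to 7.01 and 6.93 in MM1.S, and its NCI-H929 arrays overlapped at 8.71 and 8.67, then 8.73 and 8.66. The difference was 1.22 ± 0.13 (adjusted p = 0.0275). At an unadjusted p below 0.05, 12 members were higher (5.73% of all genes were) and 1 was lower (8.11%).

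Next by p came GARS1 for glycine (0.86 ± 0.14, adjusted p = 0.0773), CARS1 for cysteine (0.76 ± 0.13, adjusted p = 0.0912) and WARS1 for tryptophan (0.82 ± 0.14, adjusted p = 0.0968). All 3 fell in MM1.S, where 6 of 17 members were called lower (1.12% of all genes were). VARS1, for valine, was the exception, with 0.27 in MM1.S, −0.33 in NCI-H929 and a difference of −0.60 ± 0.13 (adjusted p = 0.138). RARS1, QARS1 and KARS1, for arginine, glutamine and lysine, had differences between −0.04 and 0.07.

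**Figure D3:**
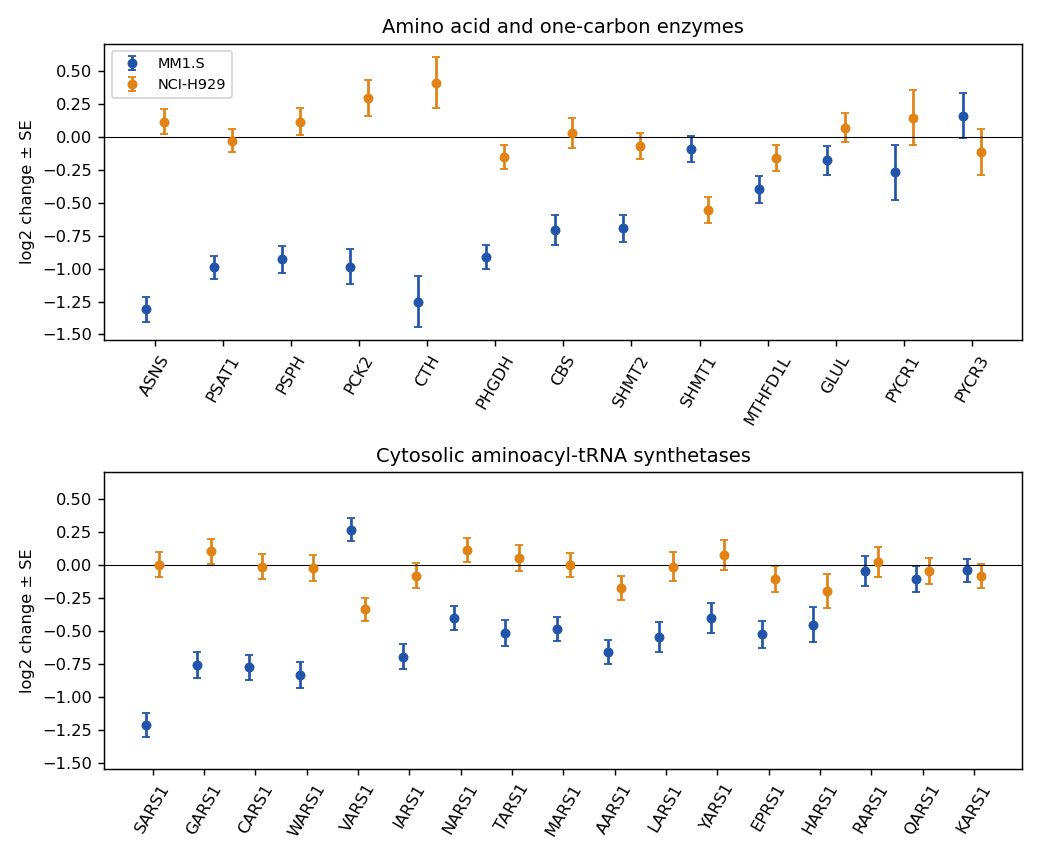
Log2 change with shSIRT6 (± limma SE) in MM1.S (blue) and NCI-H929 (orange) for the 13 tested genes of amino acid synthesis and the 17 tested cytosolic aminoacyl-tRNA synthetases. Most blue points lie well below 0, down to −1.31 for ASNS and −1.21 for SARS1, while the orange points scatter around 0; VARS1 and SHMT1 run the other way.

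The promoters of these genes were searched for the sequence through which ATF4 is known to act. ATF4 binds, with a C/EBP partner, a composite element whose core is TGATGNAA, and this core was searched on both strands of the RefSeq promoter windows of GRCh38.p14, from 250 bases before to 50 after each gene's start. It was found in 1003 of 27305 promoters (3.67%) and in 179 of 9530 promoters of genes tested (1.88%). Of the synthetases with a window, 6 of 14 held it (42.9%), of the synthesis enzymes 2 of 9 (22.2%), of the ATF4 and CHOP regulators 2 of 13 (15.4%) and of the genes called higher in NCI-H929 2 of 17 (11.8%). In mitosis genes it was 1 of 30 (3.33%) and in DNA replication genes 0 of 22. SESN2, DDIT4, DDIT3, TRIB3, SARS1 and PSAT1 had a window with no match, which says only that these letters are not in it. The matches printed are those of ASNS and CALCRL, the 2 called genes that hold one, and those of the 8 matching members of the synthesis and synthetase lists, which had the highest median differences (ASNS is in both sets), on the strand that reads TGATGNAA, with the core in capitals and 10 bases on each side.
ASNS, chr7:97872459-97872486: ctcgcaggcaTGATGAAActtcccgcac
CALCRL, chr2:187448310-187448337: ggggtcagagTGATGTAAcaggaagctc
AARS1, chr16:70289676-70289703: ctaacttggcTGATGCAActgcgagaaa
CARS1, chr11:3057408-3057435: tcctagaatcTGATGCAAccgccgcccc
IARS1, chr9:92293693-92293720: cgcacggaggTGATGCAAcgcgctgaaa
MARS1, chr12:57488054-57488081: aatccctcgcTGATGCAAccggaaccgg
NARS1, chr18:57621805-57621832: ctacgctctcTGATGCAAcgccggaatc
TARS1, chr5:33440957-33440984: ctggaccagcTGATGCAAtcgaaaggcg
MTHFD1L, chr6:150866347-150866374: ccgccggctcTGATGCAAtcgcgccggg
The differences of these 6 synthetases ran from 0.48 for MARS1 and AARS1 to 0.76 for CARS1, and none was called. MTHFD1L, a mitochondrial enzyme of folate metabolism, had a difference of 0.24 (adjusted p = 0.488). SARS1, the synthetase that was called, held no match. A match is a description of the sequence and not evidence of binding.

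Upstream of these targets no difference was called. ATF4 itself had levels of 9.89 and 9.83, then 9.64 and 9.63, in MM1.S and 10.05 and 10.10, then 10.00 and 9.94, in NCI-H929. Its hairpin arrays lay below its scramble arrays in both lines (−0.23 and −0.10), and the difference was 0.12 ± 0.13 (adjusted p = 0.715). Separation in the same direction, up or down, in both lines was seen in 15.4% of all genes. ATF4 is controlled largely at translation, which RNA arrays do not read. Of the kinases that start the response, EIF2AK4, which senses uncharged tRNA, had a difference of 0.45 (adjusted p = 0.268) and EIF2AK3, which senses stress of the endoplasmic reticulum, 0.10 (adjusted p = 0.813). The median of the ATF4 and CHOP regulators over 14 tested members was 0.16, so DDIT3 and TRIB3 stand far above the rest of the list. Of the 14, 11 had a positive difference (45.2% of all genes did) and 2 a negative one. At an unadjusted p below 0.05, 4 were higher (5.73% of all genes) and 0 lower (8.11%). ATF3, a partner and target of ATF4, had −0.38 in MM1.S and 0.56 in NCI-H929, a difference of 0.94 ± 0.18 (adjusted p = 0.116).

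The unfolded protein response and degradation genes of the endoplasmic reticulum were not called (limma, 0 of 14 at an adjusted p below 0.05). At an unadjusted p below 0.05, 2 of the 14 passed, near the share of all genes (13.8%). ERN1, the stress sensor IRE1, came closest. It had levels of 9.93 and 9.84, then 9.43 and 9.42, in MM1.S and of 9.03 and 8.98, then 9.39 and 9.50, in NCI-H929, separated in opposite order in each line (0.90 ± 0.13, adjusted p = 0.0712). PMAIP1 (NOXA), a death-promoting member of the BCL2 family, also ran opposite, with 6.98 and 6.59, then 5.87 and 5.99, in MM1.S and 4.99 and 5.0, then 5.76 and 5.45, in NCI-H929 (1.46 ± 0.22, adjusted p = 0.0712). KDM4A, a histone demethylase, had −0.55 in MM1.S and 0.33 in NCI-H929 (0.89 ± 0.14, adjusted p = 0.0756). The arrays of these 3 genes did not overlap and lay lower in MM1.S and higher in NCI-H929 with shSIRT6, an order seen in 2.82% of all genes. Non-overlapping arrays in opposite order, in either direction, were seen in 9.05%.

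Other called genes fell in MM1.S without a called change in NCI-H929. ALOX5AP, which serves leukotriene synthesis, had levels of 7.99 and 8.04, then 6.64 and 6.59, in MM1.S and 6.34 and 6.31, then 6.40 and 6.30, in NCI-H929 (difference 1.42 ± 0.13, adjusted p = 0.017). TXNIP, an inhibitor of thioredoxin that follows glucose supply, went from 10.19 and 10.16 to 9.03 and 8.98 in MM1.S and overlapped in NCI-H929 at 9.11 and 8.97, then 9.27 and 9.11 (1.32 ± 0.15, adjusted p = 0.0323). PLXDC2, a transmembrane protein, had −1.86 in MM1.S and −0.25 in NCI-H929, with a difference of 1.61 ± 0.17 (adjusted p = 0.0243).

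The remaining members of this class were the splicing regulator MBNL2 (0.98), the tRNA-splicing subunit TSEN15 (1.02), the putative nuclease TATDN3 (1.32), the receptor CALCRL (1.53), the matrix protein EFEMP1 (1.55) and the long non-coding LINC00623 (1.20). Their adjusted p ran from 0.0412 to 0.0498. MBNL2 had a mean of 9.49 with scramble in MM1.S and 4.56 in NCI-H929. CALCRL stood at 2.73 to 3.07 in NCI-H929, near or under the filter level of 3.045, so that a fall there may not be measurable. Their calls were each lost in 10 to 13 of the 19 or 20 alternatives.

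The lines started from different levels for most of these genes. With scramble, 21 of the 25 genes called higher were lower in NCI-H929 than in MM1.S (47.1% of all genes were), the exceptions being DDIT4, RGS16, PLXDC2 and SARS1. With shSIRT6, 11 of the 25 were lower in NCI-H929 (49.7% of all genes). For DDIT3 the gap between the lines went from −1.49 with scramble to 1.00 with shSIRT6, for SESN2 from −0.50 to 1.73 and for TRIB3 from −1.72 to 0.43. The order of the lines was thus turned round by the hairpin for these 3 genes. The scramble arrays enter both this gap and the difference, so the starting level cannot be told apart from the response here.

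In the other direction a single gene was called. CCND2, cyclin D2, drives entry into the cell cycle and is high in MM1.S. It had 10.40 and 10.42, then 10.50 and 10.58, in MM1.S and 7.89 and 7.84, then 6.86 and 6.71, in NCI-H929. The arrays separated in each line, but the change in MM1.S was small (0.13, adjusted p = 0.501), whereas the fall in NCI-H929 was 1.08 ± 0.099 (adjusted p = 0.0484, lost in the same alternatives as that of DDIT3). The difference was −1.21 ± 0.14 (adjusted p = 0.0371), and it was not called without any 1 of the 8 arrays (adjusted p from 0.088 to 0.172). A second row of CCND2, at a mean level of 5.64, had a difference of −0.40, and with the mean of its rows the difference was −0.80 (adjusted p = 0.101).

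CCND1, cyclin D1, had a like pattern, with 6.36 and 6.31, then 6.34 and 6.57, in MM1.S and 8.85 and 8.93, then 8.18 and 8.24, in NCI-H929 (−0.80 ± 0.15, adjusted p = 0.116). The difference for CCND3 was −0.41 (adjusted p = 0.357). MM1.S thus has CCND2 as its higher D cyclin relative to NCI-H929 and NCI-H929 has CCND1, and in NCI-H929 both had lower values with the hairpin. Over the 12 tested genes of the D cyclins, G1 kinases and inhibitors, 10 had a negative difference (54.6% of all genes did) and the median was −0.37.

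Cell cycle genes leaned the same way as CCND2 without being called. Cell division genes of the mitosis list numbered 35, of which 33 had a negative difference (54.6% of all genes did). Their median was −0.30 (0.03 in MM1.S and −0.28 in NCI-H929). Of 27 DNA replication genes, 26 were negative, with a median of −0.32 (−0.02 and −0.33). In NCI-H929 all 35 and all 27 had a negative effect as deposited (58.3% of all genes did; 26 of 27 replication genes after quantile normalization), and in MM1.S 21 of 35 and 13 of 27 had a positive one (50.6% of all genes). limma called 0 members of either list. At an unadjusted p below 0.05, 16 and 13 were lower (8.11% of all genes were), and 0 were higher (5.73%). Normalizing the arrays again by quantiles, by cyclic loess or by their medians left the median difference of mitosis genes at −0.30 to −0.27 and of replication genes at −0.31 to −0.28, and put the MM1.S median of replication genes between −0.01 and 0.05.

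FOXM1, a transcription factor of mitotic genes, had the lowest p of these lists. It stood at 7.49 and 7.39, then 7.86 and 7.79, in MM1.S and at 7.28 and 7.53, then 6.75 and 6.88, in NCI-H929 (−0.98 ± 0.17, adjusted p = 0.0912). MKI67, the proliferation marker Ki-67, had 10.93 and 10.94, then 11.38 and 11.30, in MM1.S and 10.55 and 10.65, then 10.25 and 10.28, in NCI-H929 (−0.74 ± 0.13, adjusted p = 0.102). Both were higher in MM1.S and lower in NCI-H929 with shSIRT6, with no overlap of arrays, and neither was called.

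The same order was seen for the mitotic kinase AURKB (0.41 and −0.42), the checkpoint target CDC20 (0.30 and −0.35), the S phase factor E2F2 (0.55 and −0.28) and the licensing factor CDT1 (0.34 and −0.45), where the values are the effects in MM1.S and NCI-H929. Their adjusted p for the difference ran from 0.116 to 0.195. In all, 14 of 35 mitosis genes and 6 of 27 replication genes had arrays that separated upward in MM1.S and downward in NCI-H929, against 6.24% of all genes. For thymidylate synthase TYMS and the ribonucleotide reductase subunit RRM2 the difference came from NCI-H929 (−0.49 and −0.43), with 0.03 and 0.05 in MM1.S.

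Whether cell cycle genes were called turned on how the spread was modelled. The median SD within groups was 0.182 in the genes of the lowest level quartile and 0.078 in those of the highest. With a prior spread that follows level, limma called 430 differences (3.38%), 202 higher in NCI-H929 (1.59%) and 228 lower (1.79%), all 26 of the first fit among them. On cyclic loess values, a combination chosen after seeing the data, the counts were 474 in all (3.72%), 272 higher (2.14%) and 202 lower (1.59%). The prior that follows level called 13 mitosis genes lower and 0 higher, and 9 replication genes lower and 0 higher. MKI67 then had an adjusted p of 9.59e-05 and FOXM1 of 0.00286. The same setting called 12 synthetases higher and 1 lower and 7 synthesis enzymes higher.

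**Figure D4:**
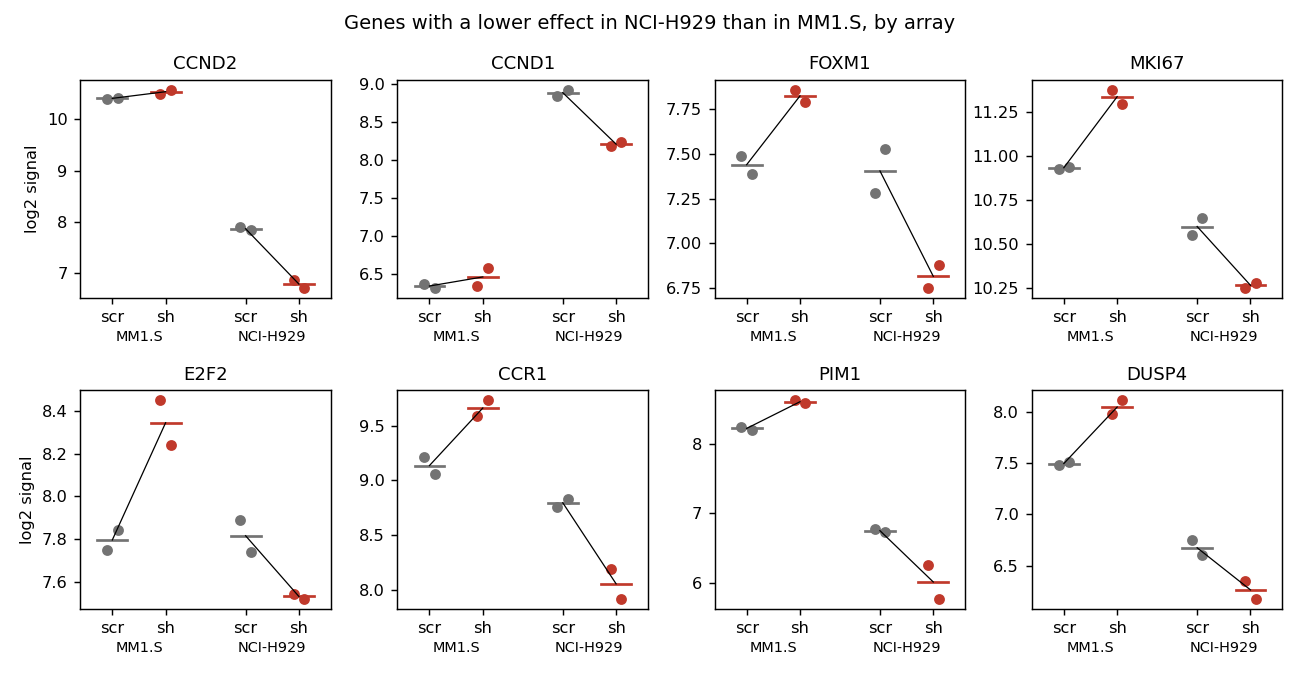
Log2 signal by array for 8 genes whose effect was lower in NCI-H929 than in MM1.S, drawn as in the plot of opposite responses: grey scramble, red shSIRT6, bars for means of 2 arrays, a y axis per panel. Only CCND2 was called; FOXM1, MKI67, E2F2, CCR1, PIM1 and DUSP4 have red points above grey in MM1.S and below grey in NCI-H929, while the MM1.S arrays of CCND1 overlap.

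Signalling genes with this order included CCR1, a chemokine receptor that guides myeloma cells in bone. Its levels were 9.21 and 9.06, then 9.59 and 9.73, in MM1.S and 8.76 and 8.83, then 8.19 and 7.92, in NCI-H929 (−1.26 ± 0.18, adjusted p = 0.0611). The survival kinase PIM1, a STAT3 target, had 0.38 in MM1.S and −0.74 in NCI-H929 (−1.12 ± 0.22, adjusted p = 0.116). DUSP4, a phosphatase that feeds back on ERK, had 0.55 and −0.41 (−0.96 ± 0.16, adjusted p = 0.083), and JUNB, an immediate-early factor, 0.46 and −0.33 (−0.79 ± 0.14, adjusted p = 0.105). Of 26 immediate-early and ERK feedback genes 18 were negative (54.6% of all genes), with a median of −0.18. limma called 0, while 7 were lower and 2 higher by unadjusted p (8.11% and 5.73% of all genes). EGR1, a further immediate-early factor, was among the exceptions, with positive values in both lines (0.37 and 1.06).

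No lipid or redox gene of the lists was called. Of 16 cholesterol synthesis genes 14 had a negative difference (54.6% of all genes), with a median of −0.31 (0.22 in MM1.S and −0.10 in NCI-H929). INSIG1, which restrains sterol synthesis, had 0.32 and −0.21 (−0.54 ± 0.15, adjusted p = 0.216), and HMGCS1, an early enzyme, 0.32 and −0.16 (adjusted p = 0.226). FASN, fatty acid synthase, rose by 0.59 in MM1.S (adjusted p = 0.0452) and had −0.10 in NCI-H929, a difference of −0.69 ± 0.14 (adjusted p = 0.138). Of 16 NRF2 and oxidative stress genes 14 were negative, with a median of −0.27, led by the lipid peroxidase GPX4 (−0.55 ± 0.13, adjusted p = 0.181) and KEAP1, which marks NRF2 for degradation (−0.60 ± 0.16, adjusted p = 0.203). limma called 0 members of these 3 lists, and 6, 1 and 6 of the cholesterol, fatty acid and NRF2 genes were lower at an unadjusted p below 0.05, beside 8.11% of all genes; the 1 of 12 fatty acid genes is near that share. After renewed normalization the NCI-H929 medians of the cholesterol list lay between −0.05 and 0.01, so its direction in that line was not resolved.

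Splicing genes, which the study's title concerns, showed small differences. Over 49 spliceosome core genes the median was −0.08 with 31 negative, and over 41 SR proteins, their kinases and hnRNPs −0.13 with 29 negative (all genes: −0.035 and 54.6%). No member was called (limma, 0 in each; by unadjusted p below 0.05, 6 and 5 lower and 2 and 0 higher, beside 8.11% and 5.73% of all genes). The snRNP protein SNRPB had 0.20 in MM1.S and −0.42 in NCI-H929 (−0.61 ± 0.13, adjusted p = 0.157), and SNRPA 0.17 and −0.32 (−0.48 ± 0.13, adjusted p = 0.215). HNRNPL and PTBP1, regulators of exon choice, had 0.36 and −0.12 and 0.34 and −0.10, differences of −0.48 and −0.44 (adjusted p = 0.203 and 0.239). PLRG1, of the activated spliceosome, ran the other way with 0.43 (adjusted p = 0.255). Cytosolic ribosomal proteins had a median of −0.06 over 46 genes and 0 called (5 lower at an unadjusted p below 0.05).

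Markers of the cells were examined beside these results. The plasma cell genes IRF4, XBP1, SLAMF7 and MZB1 had mean log2 levels above 10 over the 8 arrays (11.55, 11.34, 10.39 and 10.79). Other members were lower, and the median level of the 11 plasma cell genes tested was 8.64. None of the 11 plasma cell genes tested was called in the difference (limma, 0). By unadjusted p below 0.05 there was 1 on each side, beside 5.73% (higher) and 8.11% (lower) of all genes. SDC1, the marker CD138, rose by 0.52 in MM1.S (adjusted p = 0.0461) and had −0.07 in NCI-H929 (−0.59 ± 0.13, adjusted p = 0.153). IRF4, a survival factor of myeloma, had −0.33 and 0.06 (0.39 ± 0.13, adjusted p = 0.262).

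Markers of other lineages stayed low, with median levels of 3.89 to 4.49 over the 5 lists, and 0 were called. The T and NK cell markers were the only such list with a consistent sign: 9 of 10 had a positive difference (45.2% of all genes did) and the median was 0.20. Their summed log2 level over the 10 genes was 40.4 to 40.5 with scramble and 40.9 to 41.5 with shSIRT6 in MM1.S, and 40.0 to 40.6 and 42.5 to 43.0 in NCI-H929. Their part in the results above was not tested.

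Over all genes the responses of the lines were weakly correlated, but genes that moved in both lines more often had the same sign than opposite signs. The line effects, which have no array in common, correlated across genes at r = 0.163 and rho = 0.191 over 12734 genes, which are not independent replicates. With arrays centred on their medians r was again 0.163, but it was 0.103 after cyclic loess and 0.106 after renewed quantile normalization. How far scatter between the 2 arrays of a group lowers these correlations was not tested. Arrays of the constructs did not overlap in either line for 1967 genes in the same direction (15.4%) and for 1153 in opposite directions (9.05%). An unadjusted p below 0.05 in both lines was reached by 475 genes, 330 with the same sign (2.59%) and 145 with opposite signs (1.14%). Of the 145, 49 were lower in MM1.S and higher in NCI-H929 and 96 the reverse. The split depends on scaling: it was 73 and 64 with arrays centred on their medians, 78 and 72 after cyclic loess and 76 and 81 after renewed quantile normalization. The share of higher differences at an unadjusted p below 0.05, 41.4% as deposited, moved likewise to 53.4%, 53.3% and 49.5%. In the same order of scalings, the counts of same and opposite signs, 330 and 145 as deposited, became 289 and 137, 244 and 150, and 233 and 157. The called differences higher in NCI-H929 numbered 24 to 27, and the lower ones 1 to 2, under these 3 scalings.

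**Figure D5:**
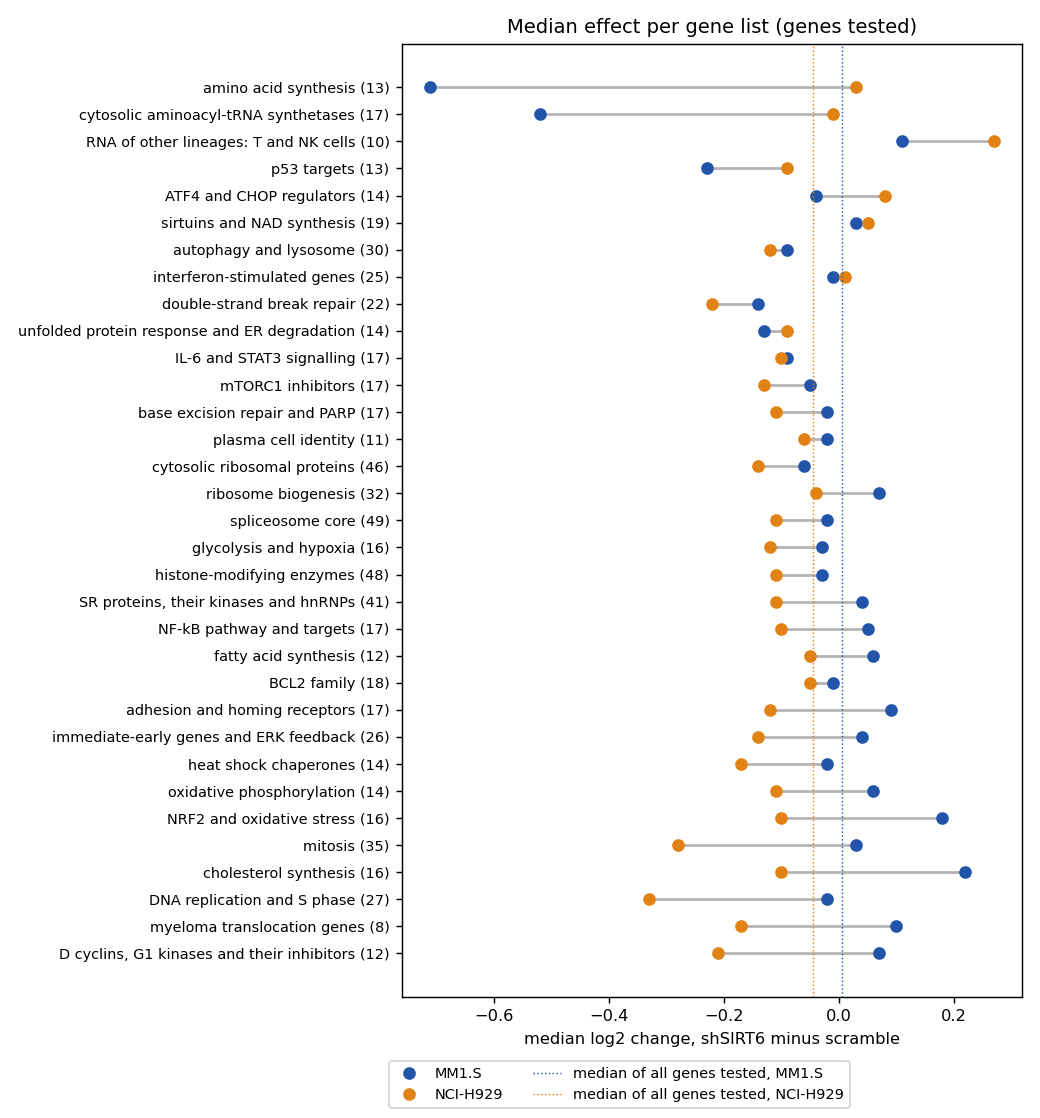
Median log2 change with shSIRT6 over the tested genes of each list (number in brackets) in MM1.S (blue) and NCI-H929 (orange), with dotted lines at the medians of all genes (0.005 and −0.045), for lists of at least 8 tested genes. The widest gaps are amino acid synthesis (−0.71 and 0.03) and the aminoacyl-tRNA synthetases (−0.52 and −0.01) at the top, and in the 6 lists at the bottom (D cyclins, myeloma translocation genes, DNA replication, cholesterol synthesis, mitosis and NRF2, ordered by median difference) orange lies to the left of blue.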

How the data were processed

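RNA of 8 samples was measured on Affymetrix Human Gene arrays. RMA, Transcriptome Analysis Console and the build hg19 are named, without versions, per the submitters' processing notes. The deposited values are log2 signals of 48226 rows; 16098 rows have 1 gene symbol in the platform annotation and 32128 are unnamed here. Without scanner intensities no probe could be judged against background, and the number of arrays limits precision. A gene was tested if its mean exceeded log2 3.045, the 30th percentile over all rows. limma 3.58.1 (R 4.3.3) fitted 4 group means (4 residual degrees of freedom, prior SD 0.128 on 3.43 degrees of freedom), and p-values were Benjamini-Hochberg adjusted over 12734 genes. The exact permutation test of a difference (36 arrangements) cannot give a two-sided p below 0.0556. Lists are described by counts and medians and were not tested. Members and the 39 lists were chosen with earlier results of these data known. The lists of amino acid transporters and mitochondrial synthetases had 0 tested genes. Named genes are SIRT6, called genes, strict opposite genes and up to 4 list members by p; ATF4, its kinases, EGR1, CCND3 and other list members named to show the range were added after their values were seen. Alternatives changed the filter, rows, normalization, prior, weights, replicate block and arrays. The code was tested on simulated arrays. A called non-coding RNA is not reported here.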

Additional observations from a re-analysis of the deposited data

Results flagged for a closer look

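The test of the difference between the lines singled out 25 named genes (limma, Benjamini-Hochberg adjusted p below 0.05 over 12734 genes). The log2 difference of the shSIRT6 effect, NCI-H929 minus MM1.S, was 2.49 for DDIT3, 2.24 for SESN2, 2.16 for DDIT4, 2.15 for TRIB3, 1.42 for ASNS, 1.22 for SARS1 and 0.96 for PSAT1, genes of the ATF4 pathway. It was 2.54 for CCDC144CP, 2.11 for CCDC144BP, 2.33 for MIR628, 2.30 for PIERCE2 and 1.03 for DNAAF4-CCPG1, which lie with near-identical or overlapping genes. It was 1.80 for RGS16, 1.57 for SULF1, 1.36 for ESRP1, 1.61 for PLXDC2, 1.42 for ALOX5AP, 1.32 for TXNIP, 1.53 for CALCRL, 1.55 for EFEMP1, 1.32 for TATDN3, 1.20 for LINC00623, 1.02 for TSEN15 and 0.98 for MBNL2. It was −1.21 for CCND2, the only one below 0. Groups of 2 arrays are too small for a check of single outlying arrays.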

How the results depend on the processing

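No called gene's difference changed sign under the alternatives run (that of SIRT6, not called, ran from −0.40 to 0.04), but the balance of directions among called genes did. The 26 called differences (25 higher, 1 lower) and 11 opposite responders, here counted without the condition on arrays, became 430 (202 and 228) and 180 with a prior trend, and 474 (272 and 202) and 191 with trend and cyclic loess, a setting chosen after seeing the data. With the trend most opposite responders ran against the main direction (60 lower in MM1.S and higher in NCI-H929, 120 the reverse); with cyclic loess they were 104 and 87. The stricter filter gave 4 lower and 19 opposite, quantile normalization 2 lower, and the mean of a gene's rows 0 lower. Leaving out 1 array gave 2 to 6 called, 2 to 6 higher, 0 lower and 2 to 6 opposite; the lone array is then assumed to vary like the other groups. With a replicate block across all groups 5 differences were called, 5 higher, 0 lower and 5 opposite, and with the block within line 0 of each (1704 at an unadjusted p below 0.05, 2 residual degrees of freedom). Same-numbered arrays deviated with correlations from −0.041 to 0.077, so no strong deviation shared by number was seen. Whether same-numbered arrays were handled together is not in the labels, and these correlations cannot decide it. The 169 calls in MM1.S became 314 (stricter filter), 953 (trend), 1018 (trend and cyclic loess), 78 and 0 (replicate blocks) and 0 to 84 without 1 array. The 3 calls in NCI-H929 became 194 and 73 with trend alone and with cyclic loess, and 0 with no filter, mean of rows, quantile, cyclic loess, robust prior, array weights, either block or any array left out. The cause of these changes was not tested. Low rows vary more, so small changes near the filter level could not be resolved.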
